A study of Mus musculus with 12 samples.

Results

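The cytosolic ribosomal protein genes were followed through 12 RNA sequencing libraries of mouse prefrontal cortex. They were chosen by name: protein-coding rows of the deposited table named as Rpl or Rps with a number, as Rplp0 to Rplp2, or as Rpsa. That gave 82 genes of 28842 rows, of which 17586 were protein coding. The large (60S) subunit had 50 of them and the small (40S) subunit 32. A mean of at least 1 fragment per kilobase and M reads (FPKM, computed here from value, gene length and library sum) was required for a test. It was reached by 80 of the 82, 48 of the large and 32 of the small subunit, among 13016 genes tested in all. The 2 below it were Rpl3l, at a mean FPKM of 0.167, and Rpl39l, at 0.0352.

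The libraries came from wild-type male C57BL/6J mice, an inbred laboratory strain. Between postnatal days 28 and 42, in adolescence, mice of the saline group (6 libraries) were injected with saline and those of the cocaine group (6 libraries) with cocaine at 15 mg/kg. All mice of both groups had a pre-test on day 75, 1 mg/kg cocaine before conditioned place preference training on days 76 and 77, and a test on day 78, a measure of how far an animal seeks a place paired with a drug. Prefrontal tissue was frozen 30 to 60 min after that test, so the comparison is between 2 adolescent treatments in mice that had all recently received the drug. Whether a library was 1 mouse is not stated in the labels. The p-values therefore reflect spread from library to library, which may be technical.

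Each ribosome is built from ribosomal RNA and about 1 copy of each ribosomal protein, so a cell makes the proteins of both subunits in matched amounts. Their mRNAs are short, abundant and stable, and many begin with a run of pyrimidines (C and T in DNA) called the 5′ TOP motif, through which the mTOR kinase and LARP1 set how well they are translated. In neurons ribosomes sit in the cell body and in dendrites, where some are used for protein synthesis near synapses. Several ribosomal proteins also act outside the ribosome: RPL5 and RPL11 bind MDM2 and so stabilise p53.

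Depth was 16.7 to 19.9 M reads per library (17.8 ± 1.19 M in saline, 17.7 ± 0.695 M in cocaine, SD, n = 6 each), so 3 reads, the limit that a count of 0 allows, were 0.151 to 0.179 per M reads. Reads on mitochondrially encoded genes took 3.24 to 5.43 percent. Markers of excitatory cortical neurons were all past the filter (8 of 8 genes), whereas the labels also carry a mesenchymal stem cell line, of whose markers 2 of 6 passed. The saline 5 library stood apart in markers of choroid plexus and ependyma, the tissue that makes and lines the spaces of cerebrospinal fluid. The summed value of the 2 that passed the filter, Ttr and Foxj1, reached 11482 in saline libraries and was 46.7 to 245 in cocaine libraries. The family's median difference and its count of positive differences are therefore given with and without that library. The same is done for some single genes, but not for all. Counts by subunit and by gene list are given with that library only.

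Promoter sequences are shown for genes that followed the rest of the family closely, genes that did not, and the gene with the largest difference between groups, so that the start of transcription can be compared between them. RefSeq promoter windows of GRCm38.p6 (250 bases before to 50 after each annotated start) were found for 62 of the 82 genes, in 74 windows. The windows printed run from 60 bases before to 15 after the start, on the gene's own strand. The longest run of C and T within 20 bases of the start is in capitals. Rpl11, Rpl13 and Rpl14 followed the other ribosomal protein genes most closely among genes with 1 window, Rpl24, Rps10 and Rps15a least closely, and Rpl7a had the largest difference between groups.
Rpl11 (chr4:136053379-136053453, minus strand): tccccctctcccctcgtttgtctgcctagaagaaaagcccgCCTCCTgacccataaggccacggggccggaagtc
Rpl13 (chr8:123102290-123102364, plus strand): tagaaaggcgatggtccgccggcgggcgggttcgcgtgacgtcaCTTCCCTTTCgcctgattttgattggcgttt
Rpl14 (chr9:120571457-120571531, plus strand): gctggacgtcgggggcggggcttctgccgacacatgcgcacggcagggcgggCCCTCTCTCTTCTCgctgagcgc
Rpl24 (chr16:55966215-55966289, plus strand): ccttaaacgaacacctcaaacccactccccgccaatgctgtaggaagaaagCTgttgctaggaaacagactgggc
Rps10 (chr17:27635230-27635304, minus strand): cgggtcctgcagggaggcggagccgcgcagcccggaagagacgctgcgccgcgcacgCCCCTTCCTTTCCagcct
Rps15a (chr7:118116133-118116207, minus strand): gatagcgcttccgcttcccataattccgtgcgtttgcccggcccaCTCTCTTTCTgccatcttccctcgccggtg
Rpl7a (chr2:26910747-26910821, plus strand): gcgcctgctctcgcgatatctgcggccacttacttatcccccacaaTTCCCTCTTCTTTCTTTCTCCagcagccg

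The run of C and T was 21 bases in Rpl7a, 14 in Rpl14, 13 in Rps10 and 10 in Rpl13 and Rps15a. It was 6 bases in Rpl11 and 2 in Rpl24. Rpl24 and Rps10 had few reads, with means of 29.7 and 50.8 normalised reads, so how closely they followed the others is uncertain. Whether run length goes with how closely a gene followed the others was not tested. A run of 8 or more such bases within 20 bases of the start was found in 43.2 percent of the ribosomal protein windows and in 17.3 percent of 32777 other windows. CCGGAAG, a core bound by ETS factors such as GABPA, was searched on both strands in the 300 bases. It was in 36.5 percent of the ribosomal protein windows and 8.80 percent of the others. AAGATGG, part of the YY1 motif, was in 16.2 against 6.32 percent, and CTCTTTC in 28.4 against 8.12 percent; TATAAA, the TATA box, was in 9.46 against 13.6 percent. These motifs can overlap each other and a match is a description of the letters only.

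Levels per length spanned a wide range. In the large subunit the highest mean FPKM was that of Rplp1 (976), an acidic protein of the stalk that recruits elongation factors, followed by Rpl36 (320) and Rpl41 (271), the smallest ribosomal protein. In the small subunit Rps15 (492), Rps3a1 (319) and Rps14 (193) led. The lowest were Rpl24 (1.64), Rpl13a (8.32) and the paralogue Rpl7l1 (12.7) in the large and Rps10 (1.25), the paralogue Rps27l (11.9) and Rps15a (22.6) in the small subunit. The file's gene length counts every annotated exon, so genes with long annotated variants come out low: Rps15a has a length of 6270 bases there and a representative transcript of 640. Rpl24, Rps10 and Rpl13a were low in reads as well, with means of 29.7, 50.8 and 308 normalised reads. Their lengths there are 1030, 2311 and 2114 bases.

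All ribosomal protein genes together took 1.02 to 1.86 percent of a library's reads (95% Wilson half-widths 0.00475 to 0.00643 percentage points, counting error only). In saline libraries 1 to 6 the share was 1.45, 1.19, 1.05, 1.02, 1.86 and 1.73 percent. In cocaine libraries 1 to 6 it was 1.64, 1.09, 1.43, 1.32, 1.57 and 1.17 percent. Both the lowest and the highest library were saline, and every cocaine library lay between them. The group means were 1.38 ± 0.356 and 1.37 ± 0.218 percent (SD, n = 6). In bulk tissue, fewer cells of a type and less RNA per cell cannot be told apart.

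This variation was shared across the family. For each library the log2 deviation of every tested gene from its own mean over the 12 libraries was averaged over the 80 genes; this mean is called the shared deviation. It was 0.08, −0.18, −0.31, −0.39, 0.44 and 0.30 in saline libraries 1 to 6. In cocaine libraries 1 to 6 it was 0.29, −0.27, 0.06, −0.04, 0.21 and −0.18. From saline 4 to saline 5 it spanned 0.83, a 1.78-fold difference in level within 1 treatment group. The difference between the groups was 0.02 (saline −0.01 ± 0.34, cocaine 0.01 ± 0.22, SD, n = 6), against a pooled SD within groups of 0.29. The large-subunit mean spanned 0.80 and the small-subunit mean 0.89, and each had r = 1.00 with the shared deviation over the 12 libraries, of which both are parts.

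**Figure D1:**
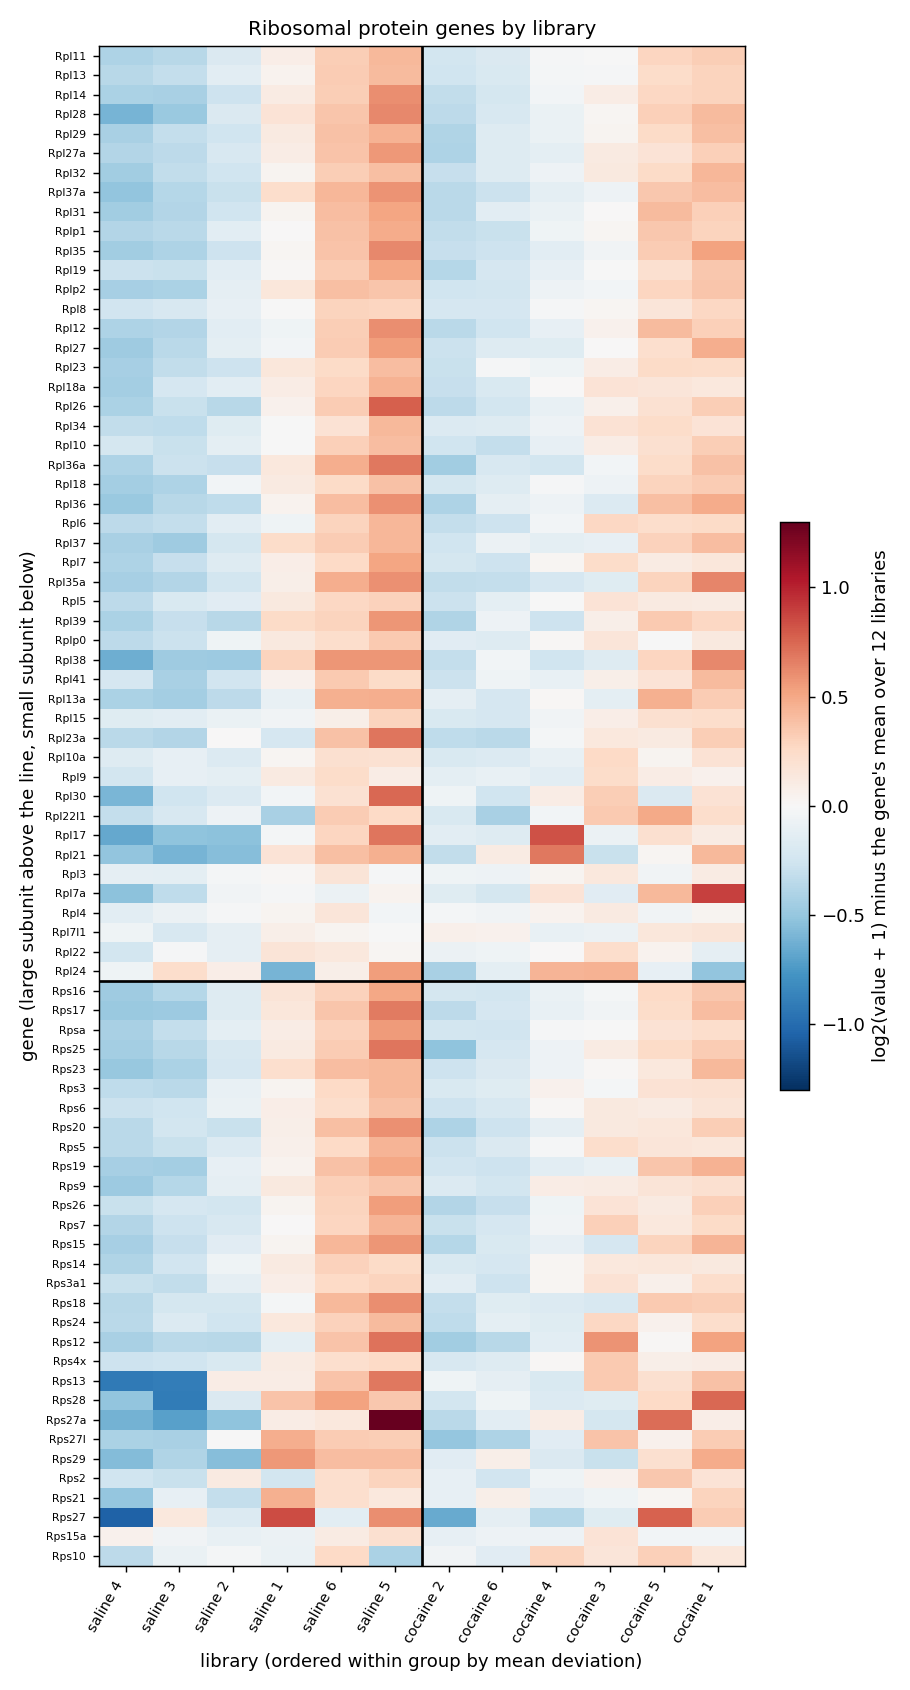
Colour gives log2(value + 1) minus the gene's mean over 12 libraries for 78 of the 80 tested genes (rows, large subunit above the line and small subunit below, sorted by correlation with the other genes) in each library (columns, sorted by the shared deviation within saline, left, and cocaine, right). Nearly all rows go from blue to red within each group, from saline 4 to saline 5 and from cocaine 2 to cocaine 1, and the rows that do not are at the bottom of each block.

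Within groups, the shared deviation held 73.0 percent of the variance of the 80 genes, and the first principal component held 81.9 percent. Over all 13016 genes tested the same shares were 0.142 and 45.7 percent. For 78 nuclear-encoded respiratory chain genes they were 68.4 and 86.9 percent, so such sharing was not particular to this family. The median correlation between pairs of ribosomal protein genes within groups was 0.86 over 3160 pairs, 99.3 percent of which were positive, and 74.5 percent were over 0.7. Over all pairs of tested genes the median was −0.00, and 9.39 percent were over 0.7. For pairs of respiratory chain genes the median was 0.87, and 71.2 percent were over 0.7. Each library was scaled by its size factor, which holds the mean deviation over all genes near 0 (SD within groups 0.01). The 0.142 percent and the median of −0.00 were thus largely set by that scaling. These correlations are descriptions: the points are libraries that share the depth and composition of each library.

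In the large subunit, Rpl13 (chromosome 8) and Rpl11 (chromosome 4) followed the mean of the other genes most closely, each with r = 0.992 over 12 libraries. Rpl13 had 6813, 5979, 5312, 5124, 8743 and 8287 normalised reads (the deposited values) in saline libraries 1 to 6. In cocaine libraries 1 to 6 it had 8071, 5511, 6518, 6502, 7780 and 5765. The order of the libraries was nearly that of the shared deviation, and the groups overlapped throughout. Rpl11 ranged from 2744 to 4835 in saline (median 3500) and from 3058 to 4526 in cocaine libraries (median 3586).

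Across the family the median correlation with the mean of the other genes was 0.95. It was over 0.9 for 56 of the 80 genes, over 0.95 for 40 and under 0.6 for 6. Rpl24 (r = 0.097) and Rps10 (r = 0.271) were the 2 genes with the lowest level per length. Their values were 18.6 to 42.5 and 37.4 to 62.5 normalised reads, and at such levels counting alone gives an SD of 0.26 and 0.20 on the log2 scale, against measured SDs within groups of 0.40 and 0.21. The other 4 genes with r under 0.6 had at least 676 normalised reads in every library. Rpl7l1 (r = 0.514) and Rpl4 (r = 0.543) are described below. Rpl22 (r = 0.501), which binds RNA and is not essential for the ribosome in most cells, had 1360 to 1799 normalised reads in saline (median 1604) and 1472 to 1873 in cocaine libraries (median 1574). Rps15a (r = 0.510) had 2323 to 2875 (median 2494) and 2319 to 2808 (median 2404). Over the 12 libraries Rpl22 varied 1.38-fold and Rps15a 1.24-fold, against 1.71-fold for Rpl13. For 56 genes the counting SD was under 0.1 times the measured SD within groups, and its median was 0.03.

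**Figure D2:**
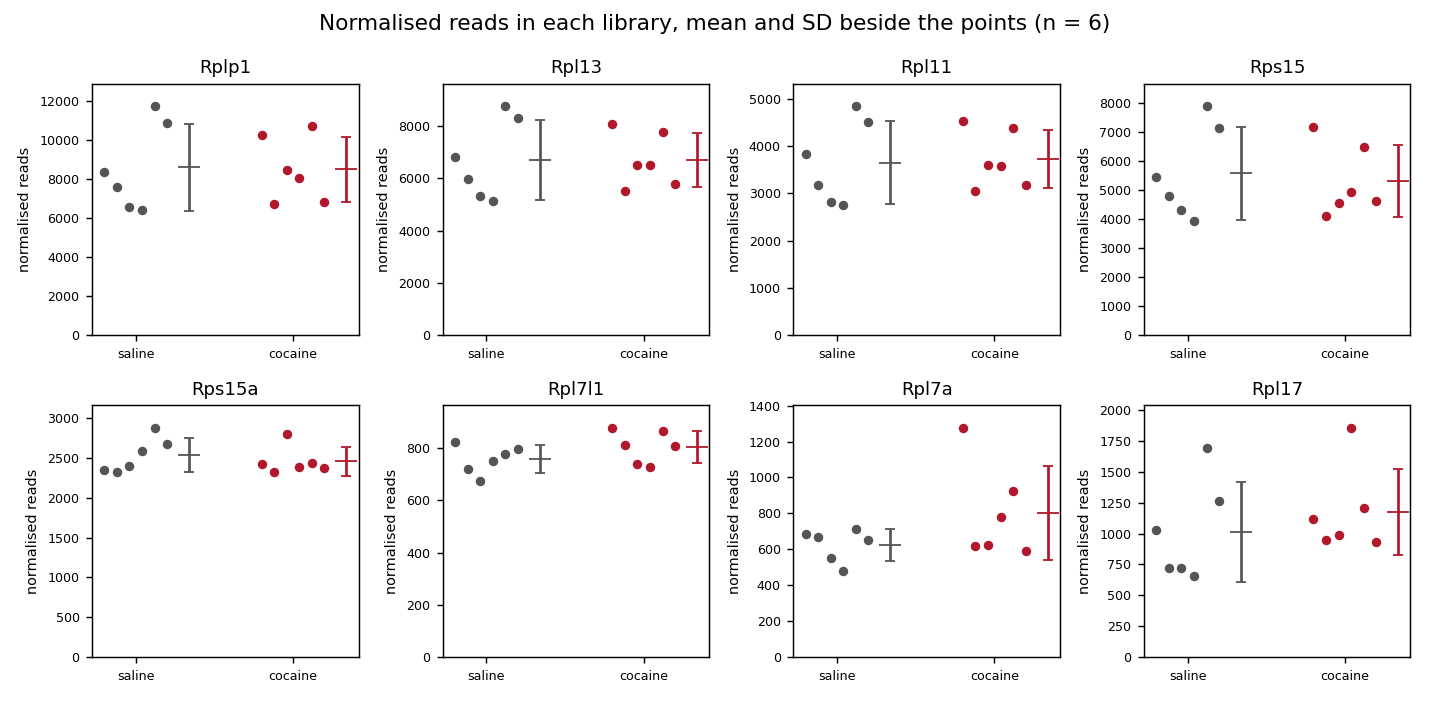
Normalised reads (vertical axes, from 0) of 8 genes in each library (points, in the order of replicate number), with mean and SD at the side (n = 6), saline in grey and cocaine in red. Rplp1, Rpl13, Rpl11 and Rps15 repeat the same high and low libraries, Rps15a and Rpl7l1 stay within a narrow band, and Rpl7a and Rpl17 each have 1 cocaine library above all others, at 1274 and 1855.

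The genes followed the shared deviation to different degrees. The slope of a gene's deviation on the mean of the others had a median of 1.05 and ran from 0.13 (Rpl24) to 1.86. The steepest, Rps27a, which encodes a fusion of ubiquitin and a small-subunit protein, was picked after its values were seen, as were Rpl3 and Rpl4 below. Rps27a had 818 to 3574 normalised reads in saline (median 1180), the highest in saline 5, and 1046 to 2208 in cocaine libraries (median 1320). Rpl3 and Rpl4, with coding lengths of 1209 and 1257 bases the longest of the tested genes, had slopes of 0.23 and 0.16. Rpl4 lay between 7247 and 8897 in saline and between 7724 and 8665 in cocaine libraries, a 1.23-fold range over all 12, against 1.82-fold for Rplp1.

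Slope went with coding length. The 38 genes with under 450 coding bases had a median slope of 1.16, the 30 genes from 450 to 750 bases one of 0.97, and the 12 genes over 750 bases one of 0.74. Across the 80 genes Spearman's rho of slope was −0.51 with coding length and −0.32 with transcript length, against 0.03 with GC content and −0.02 with mean FPKM. These are correlations across genes, which are not independent replicates. Rpl41, with 75 coding bases the shortest, had a slope of 0.89, so the shortest gene was not the steepest.

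**Figure D3:**
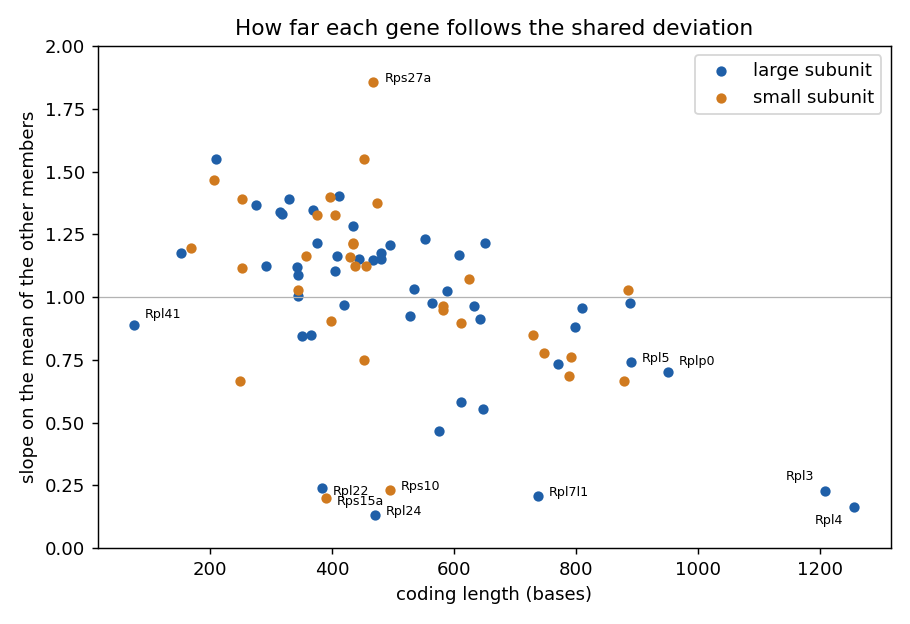
Slope of each of the 80 genes on the mean of the other genes over 12 libraries (vertical axis) against its coding length in bases (horizontal axis), large subunit in blue and small subunit in orange. A slope of 1 (grey line) means that a gene moved as far as the mean of the others; the 2 longest genes, Rpl3 and Rpl4, lie at 0.23 and 0.16.

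Genes outside the family moved with it to a degree that went with their transcript length, and less evenly with their GC content. Of the protein-coding genes tested that are not ribosomal protein genes, the 670 with a transcript under 1000 bases had a mean deviation with r = 0.99 (Spearman's rho 0.97) with the shared deviation of the ribosomal protein genes over the 12 libraries, and spanned 0.69. For 2421 genes of 1000 to 2000 bases r was 0.99 (rho 0.97) and the span 0.34. For 4738 genes of 2000 to 4000 bases r was −0.60 (rho −0.57) and the span 0.05. For 3703 genes of 4000 bases or more r was −0.98 (rho −0.97) and the span 0.41, so the libraries high for ribosomal protein genes were low for long genes. Without saline 4 and saline 5, the 2 libraries farthest from the median, r was 0.99, 0.98, −0.66 and −0.97. By GC content of the transcript, r was −0.56 for 2423 genes under 45 percent (rho −0.69, span 0.32), −0.84 for 2848 genes of 45 to 50 percent (rho −0.74, span 0.17), −0.41 for 3065 of 50 to 55 percent (rho −0.57, span 0.09) and 0.45 for 3196 of 55 percent or more (rho 0.65, span 0.32). Without saline 4 and saline 5 these were −0.54, −0.81, −0.40 and 0.41. The r values did not rise evenly with GC content. The largest deviations of the lowest and highest GC class were in cocaine 3 (0.19 and −0.21), where the shared deviation was 0.06. That library was not left out here. Length and GC content were not separated from each other. No p is given for these relations, since the genes were chosen with earlier results known.

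With the mean of the 670 short genes subtracted in each library, the mean over the 80 ribosomal protein genes ranged from −0.08 (saline 3) to 0.07 (saline 5). Its SD within groups was 0.05, against 0.29 before, and the difference between groups was −0.00. With the 57 ribosomal protein genes whose own transcripts are under 1000 bases, that SD was 0.06. What sets the tilt between transcripts of different length and GC content was not tested.

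**Figure D4:**
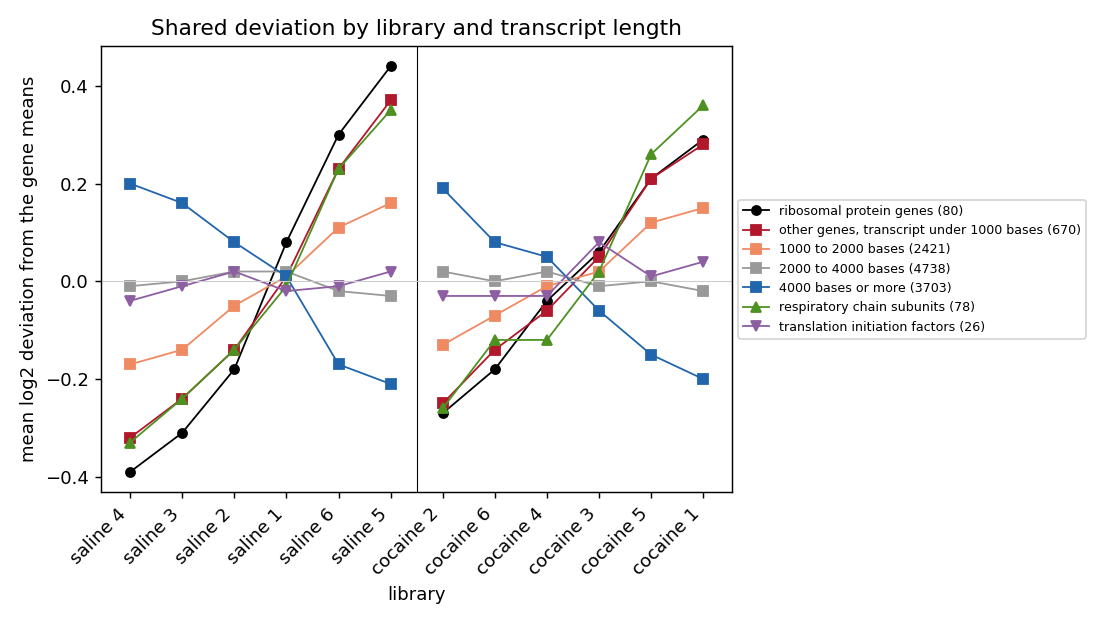
Mean log2 deviation from the gene means (vertical axis) in each library (horizontal axis, sorted by the shared deviation within saline, left, and cocaine, right) for the 80 ribosomal protein genes, other protein-coding genes in 4 classes of transcript length, respiratory chain subunits and initiation factors, with the number of genes in brackets. The short genes follow the ribosomal protein genes, the genes of 4000 bases or more run the other way, and initiation factors stay between −0.04 and 0.08.

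Other gene groups differed in how far they shared the pattern. Nuclear-encoded respiratory chain subunits (78 genes) had r = 0.97 with the shared deviation and spanned 0.69. Mitochondrial ribosomal proteins (77 genes) had r = 0.95 and spanned 0.49, and held 60.8 percent of their variance within groups on their own shared mean. The elongation factor list (8 genes, Eif5a and Tpt1 among them) had r = 0.98 with a span of 0.41. Other mRNAs known to carry a 5′ TOP motif (20 genes, some of them elongation factors) had r = 0.98 with a span of 0.48. Initiation factors (26 genes), which load the ribosome onto mRNA, spanned 0.12 with r = 0.54 and had 3.76 percent of their variance on a shared mean. Genes of ribosome assembly in the nucleolus (27) spanned 0.22 with r = 0.54, and the mTOR pathway with regulators of ribosomal protein mRNAs (18) spanned 0.20 with r = −0.70. Their rho values were 0.95, 0.93, 0.99, 0.96, 0.62, 0.55 and −0.69, and r without saline 4 and saline 5 was 0.96, 0.93, 0.97, 0.96, 0.41, 0.46 and −0.53.

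Cell type markers and library measures stood beside this as follows. The oligodendrocyte markers (8 of 8 tested) spanned 2.85 over the libraries; their r with the shared deviation was 0.50 over all libraries, 0.85 within saline and −0.45 within cocaine. Excitatory neuron markers had r = −0.86, within saline −0.96 and within cocaine −0.55. Red blood cell markers (4 of 5 tested) had r = 0.72 and mitochondrially encoded protein genes (13) r = 0.83. Spearman's rho for these 4 was 0.55, −0.85, 0.70 and 0.77, and r without saline 4 and saline 5 was 0.16, −0.75, 0.47 and 0.76. Interneuron markers went the other way from excitatory ones, with r = 0.68 (0.76 within saline, 0.53 within cocaine, 0.33 without saline 4 and saline 5). For choroid plexus and ependymal, microglia, oligodendrocyte precursor, striatal and astrocyte markers r was 0.49, 0.22, 0.18, 0.07 and 0.03. Endothelial and mesenchymal markers had r = −0.59 and −0.60. The summed value of the oligodendrocyte markers was 32458 to 232541 in saline and 48806 to 191143 in cocaine libraries, that of excitatory neuron markers 69289 to 103784 and 73895 to 97696. Their part in the shared deviation was not tested.

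Between the treatment groups no ribosomal protein gene passed the test. With limma on log2(value + 1), adjusted over all 13016 genes by Benjamini-Hochberg, 0 of 80 genes passed an adjusted p of 0.05, and the background was 0 percent (0 of 13016). At an unadjusted p under 0.05 there were 0 of 80, against 149 of 13016 genes (1.14 percent). On 10 libraries there were also 0 at an unadjusted p under 0.05 by edgeR, against 221 of 16403 genes (1.35 percent), and 0 by DESeq2, against 318 of 28634 (1.11 percent). No gene of the family had groups that did not overlap, against 10 of 13016 (0.0768 percent). In the authors' deposited table, none of the 82 genes (0) had a p under 0.05, against 428 of 28827 rows (1.48 percent), and the smallest was 0.0553.

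The log2 differences (cocaine minus saline) ran up to 0.32 with a median of 0.02, against 0.01 over all genes. The difference was positive in 52 genes and negative in 28, or 65.0 percent positive against 53.7 percent of all genes. It lay within 0.1 of 0 in 70 of the 80 (87.5 percent, all genes 72.0 percent). The median standard error was 0.17 here, against 0.13 over all genes. The 80 genes moved together, so that count is not one of separate observations and does not show that the family was more stable than other genes. It is given with all libraries only. In the large subunit 34 of 48 differences were positive (median 0.02) and in the small subunit 18 of 32 (median 0.01). Since the genes shared their deviation, the direction of most of them hung on single libraries. Without saline 5 the median was 0.10 and 77 differences were positive; without saline 4 it was −0.06 and 14 were positive. Without cocaine 1 there were 22 positive, without cocaine 5 25, without saline 2 29 and without saline 3 18. The labels also tag odd replicate numbers with day 0 and even ones with day 5. Within day 0 (3 against 3) the median was 0.12 with 73 positive, and within day 5 it was −0.08 with 13 positive, with 0 genes past the adjusted threshold in either.

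**Figure D5:**
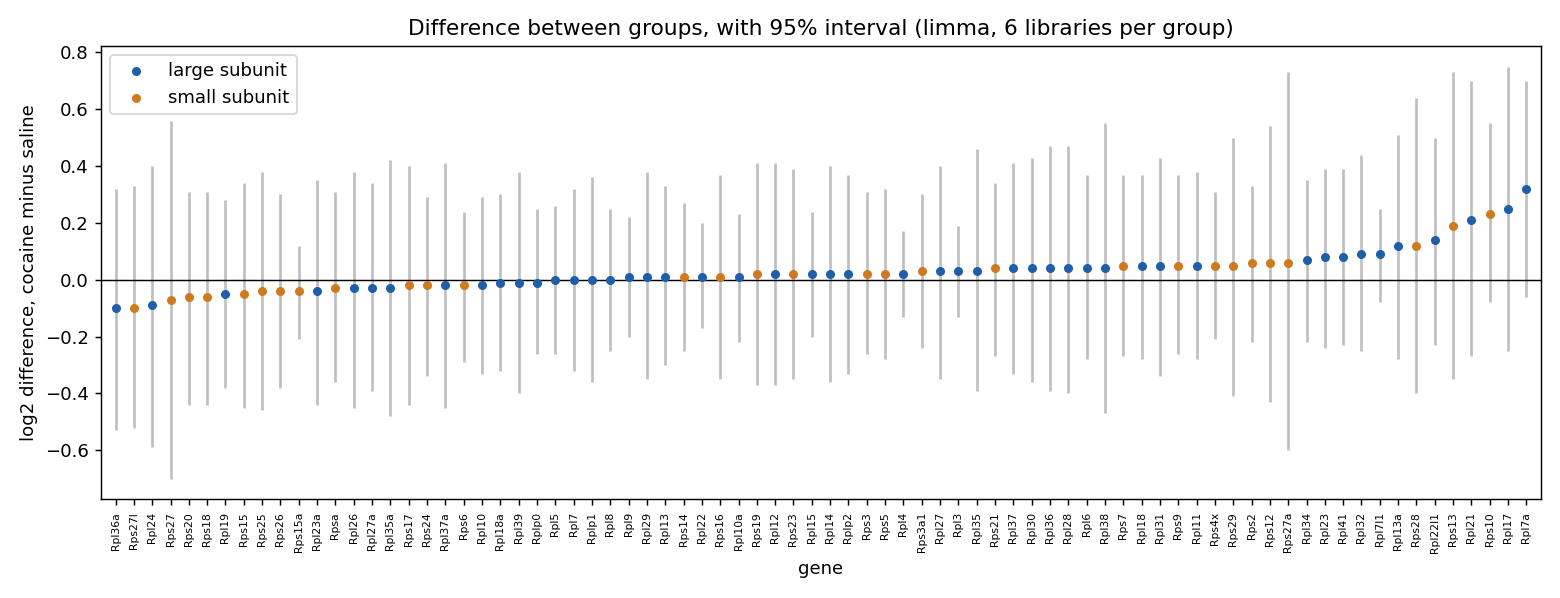
Log2 difference between cocaine and saline (points, vertical axis) with its 95% interval from limma (grey lines, 6 libraries per group) for 78 of the 80 tested genes in order of the difference (horizontal axis), large subunit in blue and small subunit in orange. All intervals include 0, and the points run from −0.10 (Rpl36a) to 0.32 (Rpl7a).

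The intervals give the differences that the values do not exclude. The most abundant gene, Rplp1, had 6413 to 11695 normalised reads in saline (median 7984) and 6686 to 10679 in cocaine libraries (median 8241). Its difference was −0.00 ± 0.17 (standard error), with a 95% interval from −0.36 to 0.36. Rps15, at 3922 to 7865 (median 5099) and 4086 to 7161 (median 4766), had a difference of −0.05 ± 0.18. Rps3a1, at 4335 to 6622 (median 5368) and 4498 to 6315 (median 5582), had 0.03 ± 0.13. In each of the 3 the cocaine values lay within the range of saline. Differences inside these intervals are not excluded with 6 libraries per group. How large a difference the test could have detected was not computed.

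The largest difference was that of Rpl7a (ENSMUSG00000062647, chromosome 2, 26910764 to 26913318, GRCm38), a large-subunit protein. In normalised reads it had 683, 670, 549, 476, 712 and 653 in saline and 1274, 619, 624, 779, 924 and 588 in cocaine libraries 1 to 6. The 3 highest values were all in the cocaine group, and the other 3 cocaine libraries lay within the saline range. The means were 624 ± 91.4 and 801 ± 264 (SD, n = 6), a log2 difference of 0.32 ± 0.18 (limma p = 0.0956, adjusted p = 1.00, and exact permutation p = 0.147, two-sided). Without cocaine 1, its highest library, the log2 difference was 0.17, and without each library in turn it ran from 0.17 to 0.39. In the authors' deposited table its log2 fold change was 0.36.

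On the negative side, Rpl36a, a large-subunit protein encoded on the X chromosome, had 843 to 1792 normalised reads in saline (median 1071) and 814 to 1451 in cocaine libraries (median 1025). Its log2 difference was −0.10 ± 0.20 (exact permutation p = 0.652), and 0.02 without saline 5. Saline 5 and saline 6 were its highest saline libraries, and the group medians lay close together. A limma fit with the shared deviation as a covariate was chosen after seeing the data. In it 3 of the 80 genes had an unadjusted p under 0.05, against 435 of all 13016 genes. Among the 3 were Rpl7a (0.30 ± 0.12) and Rpl36a (−0.14 ± 0.05), and all 3 had an adjusted p of 1.00. The covariate is the mean of the family's own deviations, so the family's differences in this fit cancel on average. That both signs occur was thus set in advance, and the fit gives no separate support for either gene.

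Several of the genes with the largest differences share sequence with processed pseudogenes, which are copies of mRNAs in the genome and are frequent in this family. The table has 174 pseudogene rows named after a ribosomal protein gene, for 56 of the 82 genes, and reads can be split between copies in ways the files do not show. For 8 genes these rows summed to over 10 percent of the gene's own value: Rps10 (1827 percent), Rpl17 (298), Rpl21 (105), Rpl7a (45.9), Rpl38 (21.3), Rpl23a (19.9), Rpl14 (14.9) and Rps16 (13.5). Of these 8, 7 had a positive difference (median 0.13), and of the other 72, 45 did (median 0.02). Values of these 8 are therefore uncertain. A row was matched only where its description names the ribosomal protein, so other copies would be missed. Rpl24 and Rpl13a, with means of 29.7 and 308 normalised reads, had 0 matched rows. The remaining genes are thus not shown to be free of this uncertainty.

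Rps10 had 37.4 to 60.0 normalised reads in saline (median 47.2) and 45.1 to 62.5 in cocaine libraries (median 55.8), a log2 difference of 0.23 ± 0.15 (exact permutation p = 0.0996). Its 3 pseudogene rows summed to 730 to 1282 and 699 to 1175, and with them added the log2 difference was −0.08. Rpl17, which lines the peptide exit tunnel, had 657 to 1696 (median 876) and 930 to 1855 (median 1055), a difference of 0.25 ± 0.23. Single libraries moved that difference: it was 0.11 without cocaine 4, 0.15 without saline 4 and 0.42 without saline 5. Its 8 pseudogene rows summed to more reads than the gene, and with them the difference was −0.02. Rpl21 had 526 to 1100 (median 732) and 641 to 1284 (median 836), a difference of 0.21 ± 0.23, and 0.04 with its 10 pseudogene rows. Without cocaine 4 its difference was 0.10, without saline 2, 3 and 4 it was 0.12, 0.11 and 0.13, and without saline 5 it was 0.33. Only for Rpl7a among these 4 was the difference with pseudogene rows, 0.26, close to that without.

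The 3 tested paralogues, close relatives encoded by separate genes, were lower per length than their parents. Rpl7l1, a relative of Rpl7, had 676 to 823 normalised reads in saline (median 766) and 728 to 877 in cocaine libraries (median 812), a log2 difference of 0.09 ± 0.08 (exact permutation p = 0.184). Its slope on the other genes was 0.21, against 0.95 for Rpl7, whose values were 3106 to 5823 and 3397 to 4819. Rpl22l1 had 442 to 748 (median 540) and 443 to 832 (median 636), a difference of 0.14 ± 0.17 (0.05 without cocaine 5 and 0.23 without cocaine 6), and Rpl22 a difference of 0.01 ± 0.09. Rps27l, a target of p53, had 123 to 229 (median 185) and 116 to 213 (median 160), a difference of −0.10 ± 0.20 (−0.04 without saline 5, and −0.19 to −0.01 without each library in turn). Rps27 had 578 to 2165 and 763 to 2040, a difference of −0.07 ± 0.30. The mean FPKM was 12.7 for Rpl7l1 and 88.2 for Rpl7, 17.4 for Rpl22l1 and 31.4 for Rpl22, and 11.9 for Rps27l and 70.6 for Rps27.

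The 2 paralogues below the filter were at the edge of detection. Rpl3l, a form of Rpl3 made in heart and skeletal muscle, had 1.96 to 8.99 normalised reads in saline (median 2.98) and 3.02 to 8.94 in cocaine libraries (median 5.71), with an exact permutation p of 0.0996 (two-sided). Rpl39l, a form of Rpl39 made in the testis, was at 0 in 5 of 6 saline libraries and 3.04 in saline 5. In cocaine libraries it was at 0 to 1.05.

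In the rest of the translation machinery, 0 genes of each list below were under an unadjusted p of 0.05 in limma. Of initiation factors 14 of 26 were on the positive side (median 0.01), of the elongation factor list 5 of 8 (0.01), of assembly factors 15 of 27 (0.01) and of the mTOR list 9 of 18 (−0.00). Dkc1, the pseudouridine synthase of ribosomal RNA, had 329 ± 60.7 normalised reads in the saline group and 393 ± 46.0 in the cocaine group (SD, n = 6). Its log2 difference was 0.27 ± 0.13 (limma adjusted p = 1.00). Eif6, which keeps the large subunit from joining too early, had 757 ± 60.8 and 826 ± 65.9 (log2 difference 0.13 ± 0.08, limma adjusted p = 1.00). Fau, a fusion of a ubiquitin-like protein and a small-subunit protein, had a log2 difference of 0.03 ± 0.15, within the range of the family. Of the p53 list, which responds to free ribosomal proteins, 9 of 12 were positive (median 0.04). Mitochondrial ribosomal proteins were positive in 58 of 77 (median 0.05) and respiratory chain subunits in 69 of 78 (median 0.04), lists that shared the pattern between libraries.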

How the data were processed

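RNA sequencing was done on 6 saline and 6 cocaine libraries of prefrontal cortex, grouped by their treatment label. The submitters' processing notes name HISAT2 2.0.5. Which counter, strand setting and annotation were used is not given in the sources used here. Those notes also name the human build hg38, but 80 of the 82 ribosomal protein genes had the start, end and strand of GENCODE M21, so coordinates are of GRCm38. The deposited values are a signal: the authors divided each library's read counts by its size factor, and not by gene length, and 100 percent were whole multiples of 1 read within 0.01 read. The deposited table also gives, per the file headers, the log2 fold change of each gene with its p-value, and a gene length, a column of another kind.

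Genes at or above 1 mean FPKM entered limma 3.58.1 in R 4.3.3 (variance trend, two-sided) on log2(value + 1), which understates the change of low genes, with Benjamini-Hochberg adjustment over all tested genes and a threshold of 0.05. Single genes also had an exact permutation test over 924 splits, which cannot go below p = 0.00216. The script was checked on simulated data. edgeR 4.0.16 and DESeq2 1.42.0 were run on whole reads of 10 libraries (6 saline, 4 cocaine); cocaine 1 and 2, where 1 read is worth nearly 1, were left out. Deviations and slopes were computed on the log2 scale. Transcript and coding lengths are of GENCODE M21, promoters of RefSeq. Pseudogene rows were matched by the ribosomal protein named in their description.

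The genes and lists were chosen with earlier results of these data known. Named genes were the 3 highest and lowest per length in each subunit, the 6 smallest p, the 3 largest differences each way, the 3 highest and lowest correlations, paralogues with their parents, genes below the filter, and the 2 smallest p of each other list, not all printed. The values of some genes are not reported here, and 2 tested genes are not drawn by name in the plots. Alternatives covered pseudocount, filter, scaling, variance model, weights, replicate number, time tag, biotype, count tests and leaving out each library.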

Additional observations from a re-analysis of the deposited data

Results flagged for a closer look

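Among 102 groups of 6 values (the named genes and the marker and gene lists, in saline and in cocaine), 6 held a value far from the other 5, by the gap to the nearest divided by the range; chance gives about 1 in 20. Rpl17 had 1855 normalised reads in cocaine 4, against 930 to 1206 in the other cocaine libraries. Rps15a had 2808 in cocaine 3, against 2319 to 2432. Rpl3l had 8.99 in saline 2, against 1.96 to 3.29, and Rpl39l had 3.04 in saline 5, where the other saline libraries were at 0; both rest on a few reads. The choroid plexus and ependymal marker mean was 6.06 in saline 5, against −1.40 to 0.65 in the other saline libraries. The mesenchymal marker mean was 0.22 in cocaine 2, against −0.05 to 0.02.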

How the results depend on the processing

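In every alternative run, 0 ribosomal protein genes passed the adjusted threshold. All genes past it were 0, except 1 with DESeq2 and 1 within day 0. The median difference of the ribosomal protein genes moved by less than the spread between libraries in all 31 alternatives, and the share of their variance on the shared deviation was 70.2 to 75.5 percent without each library in turn, with an SD of 0.25 to 0.30. Positive differences numbered 32 with edgeR (48 with limma on the same 10 libraries), 13 within day 5, and 14 to 77 without each library in turn. Genes of the family under an unadjusted p of 0.05 numbered 1 with library weights (Rpl21), 3 with the shared deviation as a covariate, 1 within day 0 (Rpl22l1) and 0 to 1 without each library in turn (Rpl7a without cocaine 6, at 0.39 ± 0.18). All genes under that p numbered 318 with DESeq2, 322 with library weights, 49 at a mean FPKM of at least 5, 715 without a filter, 435 with the shared deviation as a covariate, 280 within day 0, and 122 to 205 without each library in turn. The sign turned for Rpl22l1 with library weights (−0.00) and within day 5 (−0.20), for Rpl36a (0.02) and Rps27l (0.13) within day 0, and for Rpl36a without saline 5 (−0.19 to 0.02 without each library in turn). The cause of these changes was not tested.

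Whether replicate numbers pair the samples was not settled. Correlations of same-numbered libraries ran from −0.399 to 0.435. Saline 2 and saline 5 had their best match in the cocaine library of the same number, and the other saline libraries did not. Such correlations cannot decide it, since many genes varied together between libraries. With the replicate block 52 differences were positive with a median of 0.02, 0 of the family were under an unadjusted p of 0.05, and 150 of all genes were. The fit with the shared deviation as a covariate, the counts without genes rich in pseudogene reads (45 of 72 positive) and limma on 10 libraries were added after seeing the data.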
